A study of Homo sapiens with 6 samples.

Results

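The TNF superfamily was examined in MEC-1, a B cell line established from a chronic lymphocytic leukemia (CLL), on 6 Affymetrix whole-transcript arrays. The groups were 3 arrays of cells given a lentiviral short hairpin RNA (shRNA) against UGT2B17, which conjugates steroids and other small molecules to glucuronic acid, and 3 arrays of cells given a scrambled shRNA. All cells were grown in the same medium, RPMI with 10% FCS and no phenol red or antibiotics, and all carried a lentiviral hairpin. The labels describe the replicates as independent but name no separate cultures, so every p-value measures only the spread between these arrays. The number of hairpins against UGT2B17 is not given, so loss of UGT2B17, off-target silencing and culture-to-culture variation cannot be told apart. Members were the genes whose symbol starts with TNFSF or TNFRSF, together with TNF, LTA and LTB, measured on a probe set annotated to that symbol alone. There were 31 of them among 18404 genes tested, 12 ligands and 19 receptors. A probe set shared by TNFSF12, TNFSF13 and their readthrough transcript, one shared by RTEL1 and TNFRSF6B, and one shared by TNFRSF10C and a neighbouring transcript were left out by this rule.

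TNF superfamily ligands are mostly trimeric proteins that sit on the cell surface or are shed from it, and they cluster their receptors by binding. The receptors carry cysteine-rich repeats outside the cell. Inside it, some recruit TRAF adaptors, which lead to NF-kappaB and MAP kinase signalling, and others carry a death domain, which can lead to caspase activation. In B cells the best known members are BAFF and APRIL with their receptors BAFF-R, TACI and BCMA, which support survival and antibody secretion, and the ligands that B cells show to T cells, such as OX40L.

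All values are RMA values, which are log2 units of probe set brightness after background correction and quantile normalisation, so a difference of 1 is a doubling of signal. The 6 arrays correlated at 0.991 to 0.996 over all probe sets, and scrambled replicate 3 deviated most from its group mean. A gene was called when its adjusted p was under 0.05 (limma, a linear model with variances moderated across genes, with Benjamini-Hochberg adjustment over all 18404 genes). By this rule 3.61% of all genes tested were called. UGT2B17 itself was lower in the knockdown on the probe set naming it alone, at 3.19, 3.27 and 3.17 against 3.95, 3.69 and 3.91 with scrambled shRNA (log2 fold change −0.64 ± 0.08, SE, n = 3 each; limma adjusted p = 0.00654). That probe set was among the dimmest, at percentile 8.02 of all probe sets, where background compresses fold changes, so the size of its change is not a measure of how far UGT2B17 was lowered. The 9 measured B cell markers were bright, at percentiles from 85.0 (BANK1) to 98.8 (MS4A1) of all probe sets, and none was called. Yet the groups did not overlap for 6 of them, 5 higher and 1 lower, or 66.7% against 24.8% of all genes. Their log2 fold changes ran from −0.21 (PAX5) to 0.34 (CR2), and FCER2 came nearest the threshold (0.28; limma adjusted p = 0.0506). Of 14 T and NK cell markers, 2 were higher and 1 lower, or 21.4% called against the 3.61% of all genes. Their summed linear signal was 2244 to 2344 in the knockdown against 1048 to 1324, chiefly from GZMK, a granule protease, at a log2 fold change of 2.01. GNLY was also called higher, at a log2 fold change of 0.55, and KLRD1 lower, at −0.64 (limma adjusted p 0.00834 and 0.0062). The groups did not overlap for 6 of the 14, 4 higher and 2 lower, or 42.9% against 24.8% of all genes. CD3D, CD3E and CD3G, which define T cells, lay at percentiles 30.1, 28.8 and 31.9 and were not called. Of the monocyte and granulocyte, erythroid and platelet, and epithelial and fibroblast markers, KRT18, a keratin, was called (0.32). The part of these markers in the results was not tested. In RNA from a whole culture, fewer cells of a type and less RNA per cell cannot be told apart.

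The knockdown arrays differed in a few members, in opposite directions. TNFRSF1B (TNF receptor 2) and TNFRSF14 (HVEM) rose, while TNFRSF17 (BCMA), TNFRSF19 (TROY) and the ligand TNFSF4 (OX40L) fell. Of 31 members, 5 were called, 2 higher and 3 lower, or 16.1%, where the share over all genes tested was 3.61%. Dim genes are part of that share. With brighter genes only (mean above the median of all probe sets), 2 of 8 ligands and 5 of 17 receptors were called, against 836 of 10904 genes. Among receptors 4 of 19 were called, 2 higher and 2 lower, and among ligands 1 of 12, lower. The direction split over all genes was 1.92% higher and 1.69% lower. The median log2 fold change was −0.037 over receptors and −0.005 over ligands, against −0.002 over all genes. Both medians were small and not stable in size or sign. That of the receptors was 0.013 without scrambled replicate 1 and −0.067 with array weights. With arrays centred on their median it was −0.060, but the median of all genes then also moved, to −0.026. That of the ligands was −0.078 over the 8 left with brighter genes only. Over all 12 ligands it ran from −0.032 (without scrambled replicate 1) to 0.028 (without scrambled replicate 2) when 1 array was left out. The median absolute log2 fold change was 0.150 over receptors and 0.099 over ligands, against 0.085 over all genes. The groups did not overlap for 11 members, 4 higher and 7 lower, or 35.5%, where 24.8% of all genes tested did not overlap. Without any one of the knockdown arrays the count fell to 1 member, TNFRSF17, and without scrambled replicate 2 to 3 members, TNFRSF17, TNFRSF14 and TNFSF4.

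**Figure D1:**
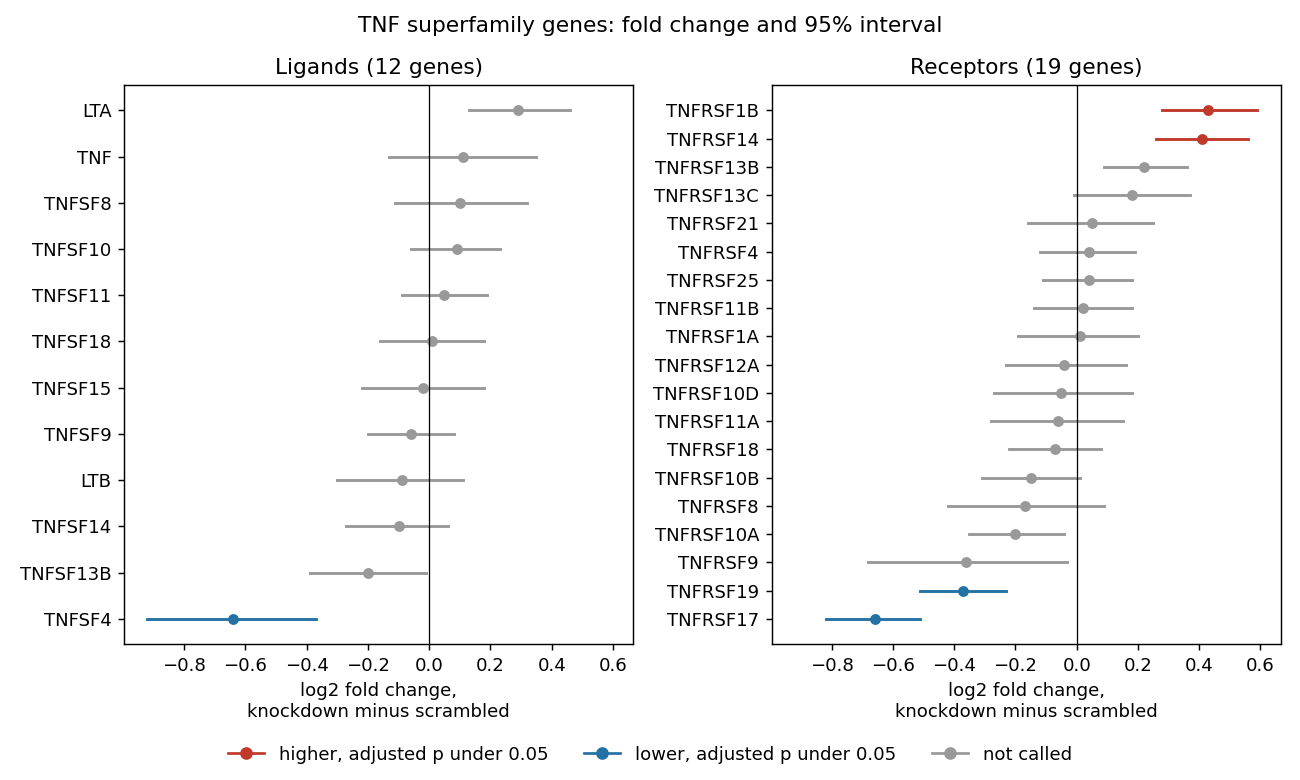
Log2 fold change (knockdown minus scrambled, x axis) of the 12 ligands and 19 receptors, each with its 95% interval from limma; colours mark genes called at an adjusted p under 0.05. TNFSF4, TNFRSF17 and TNFRSF19 lie to the left of 0, TNFRSF1B and TNFRSF14 to the right, and most other intervals cross 0.

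TNFRSF17 encodes BCMA, a receptor for APRIL and BAFF that marks B cells on the way to antibody secretion. It read 7.77, 7.81 and 7.65 in the knockdown and 8.39, 8.37 and 8.46 with scrambled shRNA. Every knockdown value was under every scrambled value, and the spread within a group was far smaller than the gap between the groups.

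TNFRSF17 fell by 0.66 on the log2 scale (SE 0.07; 95% interval −0.82 to −0.51; 1.58-fold lower; limma adjusted p = 0.00309). It was the member with the smallest adjusted p, and it was called under all 15 alternative settings. Their adjusted p ran from 0.000136 (array weights) to 0.0265 (all deposited probe sets). TNFRSF19, or TROY, a receptor known mainly from nervous tissue and epithelia, read 8.0, 8.06 and 8.04 in the knockdown and 8.39, 8.40 and 8.43 with scrambled shRNA. The arrays of each group stood close together and the groups did not overlap. TNFRSF19 fell by 0.37 (SE 0.06; 1.29-fold lower; adjusted p = 0.0155, limma).

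TNFRSF1B, TNF receptor 2, binds TNF and lymphotoxin and has no death domain. It read 9.64, 9.66 and 9.66 in the knockdown against 9.31, 9.22 and 9.12 with scrambled shRNA. The knockdown arrays were nearly identical and lay above every scrambled array. TNFRSF1B rose by 0.43 (SE 0.07; 1.35-fold; limma adjusted p = 0.0138). TNFRSF14, HVEM, is a receptor for LIGHT and lymphotoxin that also binds the inhibitory receptor BTLA. It read 9.14, 9.15 and 9.17 in the knockdown and 8.72, 8.83 and 8.67 with scrambled shRNA, again without overlap. TNFRSF14 rose by 0.41 (SE 0.07; 1.33-fold; limma adjusted p = 0.0155).

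TNFSF4 encodes OX40L, which B cells and other antigen-presenting cells show to activated T cells. It read 6.83, 7.14 and 7.0 in the knockdown and 7.60, 7.43 and 7.87 with scrambled shRNA. The groups did not overlap, but the arrays within each group spread more widely than for the called receptors. TNFSF4 fell by 0.64 (SE 0.12; 95% interval −0.92 to −0.37; 1.56-fold lower; limma adjusted p = 0.0261). The calls of TNFSF4, TNFRSF14, TNFRSF1B and TNFRSF19 were lost without knockdown replicate 1, 2 or 3, with adjusted p between 0.0639 and 0.115, and those of TNFRSF1B (0.0651) and TNFRSF19 (0.0684) also without scrambled replicate 2. Testing the 32321 deposited probe sets together also ended these calls, at adjusted p of 0.107, 0.0624, 0.0590 and 0.0585 in that order. Their log2 fold changes kept their signs throughout, but that of TNFSF4 ran from −0.75 (without scrambled replicate 2) to −0.43 (array weights). Scrambled replicate 3 was the highest TNFSF4 array, and the value without it was −0.52.

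**Figure D2:**
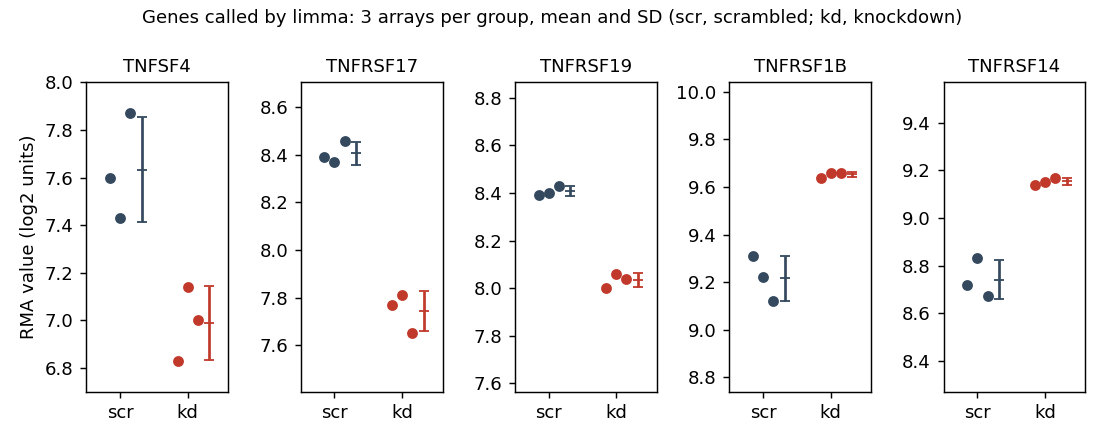
RMA values (log2 units, y axis) of the 5 called members in the scrambled (scr) and knockdown (kd) arrays; points are arrays, bars show mean and SD of 3 arrays, and all panels span the same height in log2 units. In each panel the groups are separate, with TNFSF4, TNFRSF17 and TNFRSF19 lower and TNFRSF1B and TNFRSF14 higher in the knockdown.

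The RefSeq promoter table of build GRCh38.p14 (250 bases before to 50 after a gene's start) held 22 of the 31 members, among them 4 of the 5 called ones. Their sequences are printed here 5′ to 3′ because these genes were called in the same comparison but moved in opposite directions. Whether they share any control was not tested. Capitals mark matches, on either strand, to one of 2 motifs, the NF-kappaB consensus and TGANTCA (a looser form of the AP-1 core, with any base at N).
TNFRSF1B, chr1:12166741-12167040, plus strand: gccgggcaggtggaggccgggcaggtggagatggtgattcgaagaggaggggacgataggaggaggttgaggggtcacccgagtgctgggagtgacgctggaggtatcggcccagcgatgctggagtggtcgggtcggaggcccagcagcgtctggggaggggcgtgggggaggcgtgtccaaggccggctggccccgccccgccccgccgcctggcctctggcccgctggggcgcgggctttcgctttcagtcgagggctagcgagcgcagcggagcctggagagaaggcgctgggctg
TNFRSF14, chr1:2556121-2556420, plus strand: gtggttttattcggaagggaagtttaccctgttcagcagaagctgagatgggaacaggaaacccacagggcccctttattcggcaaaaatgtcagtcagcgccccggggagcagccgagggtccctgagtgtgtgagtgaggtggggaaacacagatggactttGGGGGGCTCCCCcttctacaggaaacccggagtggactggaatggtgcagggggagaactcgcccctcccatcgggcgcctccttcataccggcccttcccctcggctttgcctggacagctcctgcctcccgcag
TNFRSF19, chr13:23570162-23570461, plus strand: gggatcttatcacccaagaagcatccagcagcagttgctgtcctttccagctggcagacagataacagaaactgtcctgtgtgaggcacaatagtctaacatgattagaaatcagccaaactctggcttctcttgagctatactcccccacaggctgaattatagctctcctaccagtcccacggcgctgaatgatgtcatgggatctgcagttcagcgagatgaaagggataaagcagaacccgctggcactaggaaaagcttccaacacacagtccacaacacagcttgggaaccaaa
TNFSF4, chr1:173205483-173205782, minus strand: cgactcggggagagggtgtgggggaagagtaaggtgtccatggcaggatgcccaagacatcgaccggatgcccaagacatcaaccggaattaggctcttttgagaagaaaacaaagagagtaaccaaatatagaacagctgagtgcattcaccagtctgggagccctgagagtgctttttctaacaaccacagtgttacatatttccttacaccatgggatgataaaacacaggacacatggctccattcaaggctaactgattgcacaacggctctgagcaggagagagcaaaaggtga
The TNFRSF14 promoter held the NF-kappaB consensus in 3 overlapping windows, bases 165 to 176 of the printed run. That motif is in 10.8% of 27305 promoters of this length and in 5 of the 22 members' promoters, those of LTB, TNFRSF14, TNFRSF25, TNFRSF9 and TNFSF14. TGANTCA is in 7.76% of all promoters and in 4 of the 22, those of TNFRSF8, TNFRSF9, TNFSF14 and TNFSF15. Neither motif was found in the TNFRSF1B, TNFRSF19 and TNFSF4 windows. The promoters of the receptors that rose were richer in G and C, at 72.0% for TNFRSF1B and 60.3% for TNFRSF14, than those of TNFRSF19 (49.0%) and TNFSF4 (48.3%), with a median of 58.3% over all promoters. TNFRSF17, which also fell, was not in the promoter table, and a link between G and C content and direction was not tested. The motif matches are letters in a window and were not measured as binding sites.

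Among the measured ligands and receptors of B cell survival, BCMA moved alone past the threshold. The ligand APRIL (TNFSF13) was not measured by itself, because its probe set is shared with TNFSF12 and their readthrough transcript. That shared probe set had a log2 fold change of 0.08 and cannot be assigned to APRIL. TNFSF13B, which encodes the ligand BAFF, read 6.48, 6.63 and 6.72 in the knockdown against 6.70, 6.81 and 6.90 with scrambled shRNA. Its groups overlapped, and its log2 fold change of −0.20 ± 0.08 (SE) was not called (limma adjusted p = 0.258). TNFRSF13B, TACI, which binds BAFF and APRIL, read 9.22, 9.23 and 9.20 in the knockdown and 9.02, 9.0 and 8.95 with scrambled shRNA. These groups did not overlap, yet the log2 fold change of 0.22 ± 0.06 (SE) missed the threshold (limma adjusted p = 0.0849). It passed with brighter genes only (0.0475) and with array weights (0.00894). Those weights were 6.12 for scrambled replicate 2 but 0.549 and 0.25 for scrambled replicates 1 and 3. That fit thus leaned largely on 1 control array, and it called 3511 of 18404 genes.

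TNFRSF13C, BAFF-R, the receptor that binds BAFF alone, read 9.50, 9.39 and 9.34 against 9.34, 9.26 and 9.08, with a log2 fold change of 0.18 ± 0.08 (limma adjusted p = 0.299). The lowest knockdown array and the highest scrambled array met at 9.34. How far these receptors stood apart in each group was described with within-array differences, 6 in all and chosen after their values were seen. TNFRSF13B minus TNFRSF17 was 1.45, 1.42 and 1.55 in the knockdown and 0.64, 0.63 and 0.49 with scrambled shRNA, a change of 0.89 log2 units. TNFRSF13C minus TNFRSF17 changed by 0.85, from 0.82 ± 0.18 to 1.67 ± 0.08 (SD, n = 3). Both separated the groups without overlap, at a two-sided exact permutation p of 0.1, the smallest that 3 against 3 allows (0.12 adjusted over the 6 differences). With TNFRSF17 lower and TNFRSF13B higher in every knockdown array, the first separation was fixed in advance. The second was fixed too, because the TNFRSF13C groups met only at 9.34. Each difference here and below that separated the groups held a called member, so its p adds nothing to that call. TNFRSF13C minus TNFRSF13B changed by −0.04, with overlapping groups (exact permutation p = 0.7). The differences between probe sets have no meaning as levels, and the change between groups is the measurement.

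**Figure D3:**
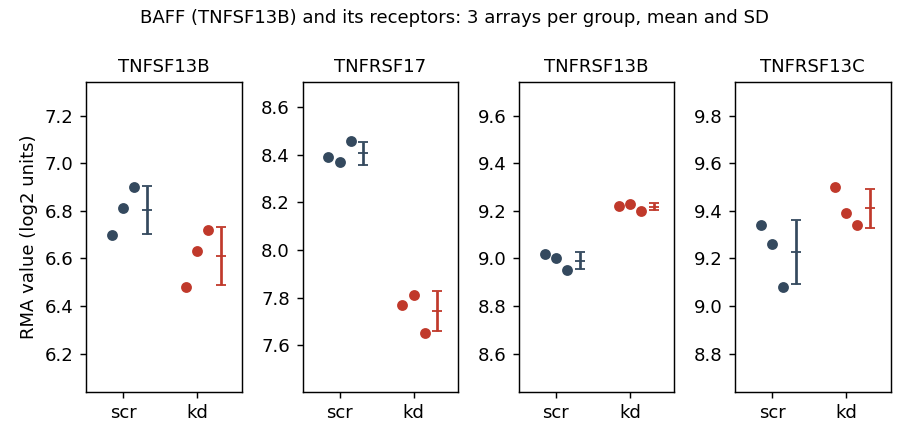
RMA values (log2 units, y axis) of BAFF (TNFSF13B) and its receptors TNFRSF17 (BCMA), TNFRSF13B (TACI) and TNFRSF13C (BAFF-R) in scrambled (scr) and knockdown (kd) arrays; points are arrays, bars show mean and SD of 3 arrays. TNFRSF17 is lower in every knockdown array, while TNFRSF13B is higher in every knockdown array without being called.

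TNF and the lymphotoxins signal through the TNF receptors, and LTB joins LTA in a membrane complex that binds LTBR. LTA read 10.09, 10.12 and 10.02 in the knockdown and 9.73, 9.72 and 9.90 with scrambled shRNA, so the groups did not overlap. Its log2 fold change was 0.29 ± 0.07 (SE; limma adjusted p = 0.0659), and it passed without scrambled replicate 3 at 0.35 (adjusted p = 0.0240). The dimmer LTA probe set, at 8.45, 8.73 and 8.61 against 8.42, 8.50 and 8.57, overlapped between groups and had a log2 fold change of 0.10. The probe sets of LTA therefore differed in size, and with their mean the adjusted p was 0.207. TNF read 8.68, 8.55 and 8.51 in the knockdown against 8.29, 8.42 and 8.70 with scrambled shRNA (log2 fold change 0.11 ± 0.11; adjusted p = 0.656, limma). Scrambled replicate 3 was the highest of the 6 TNF values, and the log2 fold change was 0.23 without it (adjusted p = 0.160), but 0.02 without scrambled replicate 1 (adjusted p = 0.942).

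LTB read 8.78, 8.64 and 8.43 against 8.76, 8.65 and 8.72, a log2 fold change of −0.09 ± 0.09 (adjusted p = 0.661, limma). Its dimmer probe set gave 0.11, so the LTB probe sets differed in sign. TNFRSF1A, TNF receptor 1, which carries a death domain, read 6.73, 6.73 and 6.52 in the knockdown and 6.55, 6.74 and 6.67 with scrambled shRNA. Its log2 fold change was 0.01 with a 95% interval of −0.19 to 0.20, and the sign turned under both rescalings of the arrays (−0.02). TNFRSF1B minus TNFRSF1A changed by 0.43 log2 units, from 2.56 ± 0.17 to 2.99 ± 0.12 (SD, n = 3), without overlap (exact permutation p = 0.1, the smallest possible).

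HVEM rose without a called change in its ligand LIGHT or in its partners outside the family. TNFSF14, LIGHT, read 7.65, 7.71 and 7.67 against 7.76, 7.68 and 7.90 (log2 fold change −0.10 ± 0.07; limma adjusted p = 0.516). TNFRSF14 minus TNFSF14 changed by 0.51, from 0.96 ± 0.19 to 1.48 ± 0.04 (SD, n = 3), without overlap (exact permutation p = 0.1). BTLA, the inhibitory receptor bound by HVEM, read 10.47, 10.46 and 10.46 against 10.80, 10.68 and 10.49, a log2 fold change of −0.19 ± 0.08 (limma adjusted p = 0.266). Its scrambled arrays all lay higher, the third only just. CD160, another partner of HVEM, was dim and had a log2 fold change of −0.15 (limma adjusted p = 0.419).

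In the remaining costimulatory pairs, no member other than OX40L was called. OX40, TNFRSF4, the receptor of OX40L, read 7.02, 7.06 and 6.96 against 6.96, 7.06 and 6.92, so its groups overlapped where those of its ligand did not. TNFSF4 minus TNFRSF4 changed by −0.68, from 0.65 ± 0.29 to −0.02 ± 0.15 (SD, n = 3; exact permutation p = 0.1). TNFRSF9, 4-1BB, which is induced by activation, read 8.13, 8.08 and 8.02 in the knockdown and 8.31, 8.18 and 8.82 with scrambled shRNA. The groups did not overlap, but scrambled replicate 3 stood well above the others. The log2 fold change was −0.36 ± 0.14 (SE; limma adjusted p = 0.238) and −0.16 without that array (adjusted p = 0.264). The ligand of 4-1BB, TNFSF9, read 10.02, 10.08 and 10.08 against 10.11, 10.10 and 10.16. It also separated the groups, by a log2 fold change of only −0.06 (adjusted p = 0.656, limma).

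TNFRSF8, CD30, a receptor of activated lymphocytes, showed the same outlying array, at 8.12, 8.04 and 8.11 in the knockdown against 8.07, 8.16 and 8.53. Its log2 fold change was −0.17 ± 0.11 (adjusted p = 0.489, limma) and −0.03 without scrambled replicate 3. The CD30 ligand TNFSF8 had a log2 fold change of 0.10. TNFRSF18 (GITR) and its ligand TNFSF18 had log2 fold changes of −0.07 and 0.01, and TNFRSF25 (DR3) and its ligand TNFSF15 of 0.04 and −0.02. TNFSF18 and TNFSF15 were dim, at percentiles 10.3 and 19.9 of all probe sets, where background compresses fold changes. Adjusted p for these 5 genes lay between 0.630 (TNFRSF18) and 0.960 (TNFSF18) by limma.

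The TRAIL system includes a ligand, receptors with a death domain and decoy receptors that lack a working one. The ligand TNFSF10 read 9.55, 9.64 and 9.69 in the knockdown and 9.56, 9.50 and 9.55 with scrambled shRNA, overlapping narrowly, with a log2 fold change of 0.09 ± 0.07 (limma adjusted p = 0.548). The death receptor TNFRSF10A read 7.27, 7.38 and 7.34 against 7.61, 7.52 and 7.44, and TNFRSF10B read 8.82, 8.97 and 8.88 against 9.12, 8.99 and 8.99. Both were below all scrambled arrays in each knockdown array. Their log2 fold changes of −0.20 ± 0.07 and −0.15 ± 0.07 were not called (limma adjusted p 0.183 and 0.314). The decoy TNFRSF10D read 8.66, 8.60 and 8.71 against 8.89, 8.74 and 8.49, with overlap and a log2 fold change of −0.05. FAS, a death receptor whose symbol lies outside the rule, had a log2 fold change of 0.05 and FASLG, its ligand, of 0.11, neither called.

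The other receptors and ligands were not called. TNFRSF11A, RANK, read 9.93, 9.92 and 9.91 in the knockdown against 10.18, 9.98 and 9.81, so the knockdown values sat inside the scrambled range (log2 fold change −0.06 ± 0.09). Its ligand TNFSF11 (RANKL) had a log2 fold change of 0.05 and TNFRSF11B, the secreted decoy osteoprotegerin, of 0.02. TNFRSF12A (Fn14, the TWEAK receptor) and TNFRSF21 (DR6, a death receptor) had −0.04 and 0.05. TNFRSF11B was dim, at percentile 17.5. Their 95% intervals all lay within −0.28 and 0.25 log2 units. Limma adjusted p for these 5 genes was between 0.746 (TNFSF11) and 0.914 (TNFRSF11B).

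Several members are direct neighbours on a chromosome, by the order of protein-coding genes in RefSeq. Their values stand side by side here, and the differences between neighbours were not tested. TNFRSF1B and TNFRSF8 are adjacent on chromosome 1, with log2 fold changes of 0.43 and −0.17. TNFSF4 and TNFSF18, also adjacent on chromosome 1, had −0.64 and 0.01. On chromosome 6, LTA, TNF and LTB follow each other with 0.29, 0.11 and −0.09. TNFRSF18 and TNFRSF4, adjacent on chromosome 1, had −0.07 and 0.04, TNFSF15 and TNFSF8 on chromosome 9 had −0.02 and 0.10, and TNFRSF10D and TNFRSF10A on chromosome 8 had −0.05 and −0.20. The called members with a direct neighbour in the family were TNFRSF1B and TNFSF4. Neither neighbour was called, where 5 of 31 members and 3.61% of all genes tested were called.

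Family members that carry other symbols were not called. Of the 3 measured ligands (CD70, FASLG and EDA) and 8 receptors, none passed. CD27, the receptor of CD70, read 10.91, 10.80 and 10.85 in the knockdown and 11.11, 11.08 and 11.06 with scrambled shRNA, and CD40, the receptor that takes T cell help, read 8.64, 8.69 and 8.63 against 8.93, 8.92 and 8.79. Both separated the groups, with log2 fold changes of −0.23 ± 0.06 and −0.23 ± 0.07 (SE; limma adjusted p 0.0934 and 0.111). CD40 passed without scrambled replicate 3, at −0.27 (adjusted p = 0.0484). CD70 read 10.21, 10.14 and 10.25 against 10.29, 10.27 and 10.15, which overlapped. EDAR, the ectodysplasin receptor, had a log2 fold change of 0.13 (adjusted p = 0.388, limma).

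Below the receptors, 4 of 71 measured genes of the adaptor, death, NF-kappaB, shedding and partner lists and the family members above were called, 2 higher and 2 lower, or 5.63% against 3.61% of all genes. With brighter genes only, 5 of 60 were called against 836 of 10904 genes, so the lists stood close to genes of like brightness. Of 19 adaptors and signalling proteins, 1 rose and 1 fell, or 10.5% called, with a median log2 fold change of 0.077. TAB2, which links TRAF signalling to the kinase TAK1, read 9.35, 9.51 and 9.45 in the knockdown and 9.09, 8.99 and 8.99 with scrambled shRNA. It rose by 0.41 ± 0.07 (SE; limma adjusted p = 0.0167). MAP3K5, or ASK1, a kinase that leads to JNK and p38, read 8.75, 9.08 and 9.0 against 9.76, 9.60 and 9.46. It fell by 0.66 ± 0.11 (limma adjusted p = 0.0153). In both genes the groups did not overlap. The call of TAB2 was lost without knockdown replicate 2 or 3 or scrambled replicate 2 (adjusted p 0.0922, 0.0808 and 0.0783), and that of MAP3K5 without knockdown replicate 1 or 3 or scrambled replicate 2 (0.0601, 0.0573 and 0.0679).

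Among genes not called, the adaptor TRAF5 read 8.56, 8.60 and 8.63 against 8.39, 8.27 and 7.98, with a log2 fold change of 0.38 ± 0.10 (limma adjusted p = 0.0777). The call was made without scrambled replicate 1 (0.47; adjusted p = 0.0384). TRAF3, which restrains the noncanonical NF-kappaB arm, had 0.15, and CYLD, a deubiquitinase that limits signalling, −0.21 (adjusted p 0.282 and 0.211, limma). None of the 8 death complex genes was called, and their log2 fold changes ran from −0.21 for CFLAR, the caspase-8 inhibitor FLIP, to 0.04 for MLKL and CASP10. RIPK3, a necroptosis kinase, had −0.16.

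Of 16 NF-kappaB genes, 1 rose and 1 fell, or 12.5% called against 3.61% of all genes, and the median log2 fold change was −0.086. The called genes, TNIP1 and TNIP3, encode related proteins that bind TNFAIP3 (A20) and dampen signalling. TNIP1 read 9.47, 9.42 and 9.44 in the knockdown and 9.03, 8.93 and 8.96 with scrambled shRNA, and rose by 0.47 ± 0.06 (SE; limma adjusted p = 0.00722). TNIP3, at percentile 38.7 of all probe sets, read 5.34, 5.41 and 5.10 against 5.99, 6.17 and 5.97. It fell by 0.76 ± 0.10 (limma adjusted p = 0.00620). TNFAIP3 itself read 9.93, 10.00 and 10.01 against 9.67, 9.73 and 9.73, a log2 fold change of 0.27 ± 0.06 that missed the threshold (limma adjusted p = 0.0506). It passed after another quantile normalisation (0.0317), with brighter genes only (0.0293), with an intensity trend (0.0259) and with array weights (0.00418).

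NFKBIA, the inhibitor IkappaB alpha, read 10.30, 10.26 and 10.20 against 10.48, 10.65 and 11.03, with a log2 fold change of −0.47 ± 0.13 (limma adjusted p = 0.0849). Scrambled replicate 3 was again the highest array, and the value without it was −0.31 (adjusted p = 0.0614). NFKBIA was called without scrambled replicate 1 (−0.59; adjusted p = 0.0363) and with array weights (0.00368). MAP3K14 (NIK), the kinase of the noncanonical arm, had −0.32 ± 0.09 (adjusted p = 0.103, limma). None of the 13 measured processing and shedding enzymes was called. Among them NCSTN, a subunit of gamma-secretase, the protease that sheds BCMA, read 9.29, 9.26 and 9.33 against 9.57, 9.54 and 9.47 (log2 fold change −0.24 ± 0.06; limma adjusted p = 0.0841). ADAM10 had −0.14 and PSENEN −0.10. SDC1, a heparan sulfate proteoglycan that binds APRIL, had −0.17 (adjusted p = 0.339, limma).

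**Figure D4:**
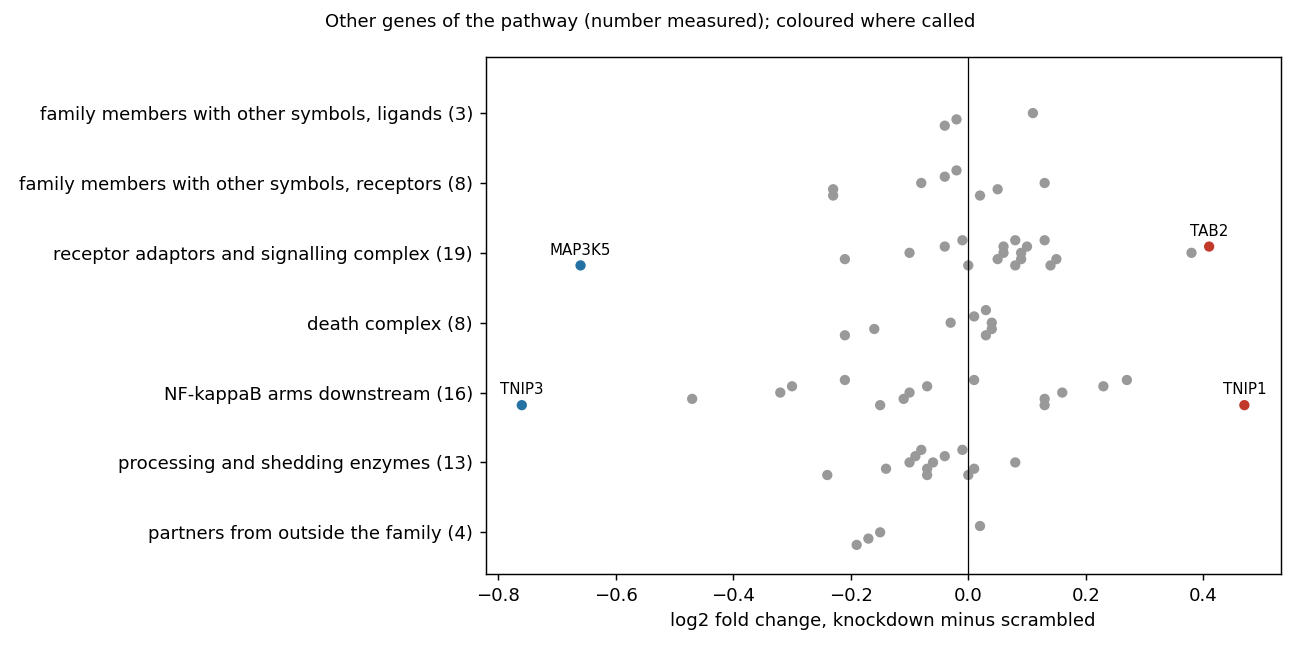
Log2 fold change (knockdown minus scrambled, x axis) of 71 further genes of the pathway in 7 lists (y axis; number measured in brackets), 1 point per gene; vertical offsets only separate points. TAB2 and TNIP1 are called higher, MAP3K5 and TNIP3 lower, and all other genes are grey.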

How the data were processed

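Total RNA from 6 MEC-1 samples was labelled with biotin and hybridised to 1 array each, per the labels. The deposited log2 values came from RMA, per the submitters' processing notes (version and library files not given in the sources used here). RMA compresses dim probe sets' fold changes, and its quantile step can hide a global shift. Values were used as deposited.

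Probe sets were named through the platform annotation: 19158 of 32321 name 1 symbol. For each symbol the brightest on average was kept (18404 genes), with no filter on dim ones. LTA and LTB had another probe set each. The comparison used limma 3.58.1 under R 4.3.3 (lmFit, eBayes, two-sided, no covariate), Benjamini-Hochberg adjusted over all genes, threshold 0.05. The fit was also run on simulated data, and the outcome is not given here. Called members, members separating the groups by 0.3 log2 units or more and the 3 uncalled genes per list with the smallest p were named. The members and lists were chosen with earlier results of these data known. Same-numbered replicates did not deviate together (r −0.05385, −0.06661 and −0.03343), so the numbers were not used as pairs. Alternatives were other normalisations, filters, variance priors, array weights, probe set choices, the replicate block and leaving out each array. Precision is limited by having 3 arrays per group.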

Additional observations from a re-analysis of the deposited data

How the results depend on the processing

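Of all 665 genes called, array weights gave 3511, all deposited probe sets 165 and the replicate block 367, and leaving out 1 array gave 152 to 759. The array weights were 6.12 for scrambled replicate 2, and 0.549 and 0.25 for scrambled replicates 1 and 3. Arrays centred on their median gave 275 higher and 316 lower calls against 354 and 311. The ligand count of 1 became 2 after another quantile normalisation, with brighter genes only, with an intensity trend and with array weights, LTA being added. It was 0 over all deposited probe sets and 0 to 2 without 1 array. The receptor count of 4 became 5 with brighter genes only, TNFRSF13B being added, 6 with array weights, TNFRSF13B and TNFRSF10A (adjusted p = 0.0263) being added, 1 over all deposited probe sets and 1 to 4 without 1 array. With the replicate block, a fit on numbers that do not pair the arrays, TNFRSF19 (adjusted p = 0.0519) and TAB2 (0.0529) were not called, and 3 receptors, 1 ligand and 3 pathway genes were. The pathway count of 4 became 16 with array weights, 2 over all deposited probe sets, and 2 to 6 without 1 array; alternatives for this count and for the within-array differences were chosen after seeing the data.

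Some signs turned, among values near 0. The ligand median turned to 0.003 with array weights, 0.011 with the mean of probe sets, and 0.006 and 0.028 without knockdown replicate 3 and scrambled replicate 2; the receptor median turned to 0.013 without scrambled replicate 1. With array weights the log2 fold change was −0.07 for TNFRSF1A, −0.03 for TNFRSF11B, 0.02 for TNFRSF12A, −0.02 for TNFRSF4 and 0.04 for EDA. TNFRSF1A gave −0.02 after another quantile normalisation and centred, TNFSF18 −0.01 and TNFRSF11B 0.00 centred, and LTB 0.01 with the mean of its probe sets. Without 1 array in turn, log2 fold changes ran from −0.08 to 0.07 for TNFSF15, −0.05 to 0.05 for TNFSF18, −0.15 to 0.04 for TNFRSF10D, −0.16 to 0.03 for TNFRSF11A, −0.01 to 0.06 for TNFRSF11B, −0.10 to 0.04 for TNFRSF12A, −0.05 to 0.08 for TNFRSF1A, −0.04 to 0.12 for TNFRSF21, −0.06 to 0.06 for EDA and 0.00 to 0.10 for MLKL, and the TNFRSF13C minus TNFRSF13B change from −0.09 to 0.00. The cause of these differences was not tested. Neither rescaling moved the median of all genes by over 0.1.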
